A study of Mus musculus with 2 samples.

Results

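The Pax family is represented on a pair of mouse promoter arrays by all 9 of its genes, Pax1 to Pax9. Members were taken as the non-control spots whose gene name in the array annotation is Pax followed by 1 digit, alone or joined to another gene, and 0 joined names were found. This gave 401 of 474380 probes and 9 of 16969 named genes. Array 1 carried Pax1, Pax3, Pax4, Pax5, Pax6, Pax7 and Pax8, and array 2 carried Pax2 and Pax9.

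Pax proteins are transcription factors that bind DNA through a paired domain, and some of them also carry a homeodomain. They are known for specifying organs and cell lineages of the embryo: eye, brain and pancreas (Pax6), endocrine pancreas (Pax4), neural crest and muscle (Pax3 and Pax7), kidney, B lymphocytes and thyroid (Pax2, Pax5 and Pax8), and the vertebral column, thymus and teeth (Pax1 and Pax9). Tcf3 in the sense of these samples is the HMG-box factor of the Tcf/Lef family, which acts in the Wnt pathway together with β-catenin or Groucho-type corepressors.

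The samples ask where Tcf3 lies on promoter DNA of E14 cells, an established mouse embryonic stem cell line grown without feeder cells. DNA of the immunoprecipitate, labelled with Cy5, was hybridised together with input DNA, labelled with Cy3, on each array. The titles name Tcf3, while the protocols list antibodies to several proteins without saying which one the arrays used. There was 1 hybridisation per array, no treated group and no control immunoprecipitation, and the arrays share 0 probes, so each gene was measured once and has no replicate check.

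Values are log2 ratios of Cy5 over Cy3, with the median of each array set to 0. The SD printed beside a mean is the scatter over neighbouring probes of 1 hybridisation, not an error between experiments, and the labels give DNA fragments of 500 bp on average, so neighbouring probes read shared fragments. A set joins each probe to the closest probe before and after it, up to 1000 bp away. A probe was called when its set mean and its own or its neighbours' ratios passed fixed limits. On array 1 these were a mean of 1.47 for a set of 3 probes, with either 2 of its probes at 1.85 or the central probe at 2.22 beside a neighbour at 0.92. On array 2 the corresponding limits were 1.69, 2.00, 2.40 and 0.99. A gene was called when a called probe carried its name. A spot whose Cy5 signal was not above background holds a surrogate value; this applied to 30.7% of the probes of array 1, to 51.7% of array 2 and to 82 of the 401 Pax probes (20.4%). Probe positions are in the array's own coordinates, whose genome build was not given in the sources used here, and whether a probe lies in an exon, intron or UTR was not analysed here.

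The sequences that carry the main result are the 5 neighbouring Pax6 probes that were called, at chr2:105528160-105528790. They are printed as the array files give them, in the order of their position. Capitals in a probe mark a Tcf/Lef core word, searched on both strands as the word CTTTGAA together with its relatives, namely CTTTGAT as well as CTTTGTA and also CTTTGTT. None of these 4 words contains another. The 5 called probes hold none of them and stand in lower case throughout:
Pax6 called probe chr2:105528160-105528218: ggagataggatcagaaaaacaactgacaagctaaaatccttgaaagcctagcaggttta
Pax6 called probe chr2:105528286-105528340: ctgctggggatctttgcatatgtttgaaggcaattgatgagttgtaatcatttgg
Pax6 called probe chr2:105528438-105528497: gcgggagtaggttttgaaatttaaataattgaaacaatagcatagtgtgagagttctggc
Pax6 called probe chr2:105528558-105528608: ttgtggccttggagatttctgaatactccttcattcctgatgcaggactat
Pax6 called probe chr2:105528731-105528790: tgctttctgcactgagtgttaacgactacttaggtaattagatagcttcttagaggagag

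The probe before them on the chromosome is shown because it holds a core word, the reverse complement of CTTTGTT, and has a ratio above 1:
Pax6 probe chr2:105528016-105528075: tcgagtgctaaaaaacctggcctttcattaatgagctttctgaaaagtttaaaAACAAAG

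The RefSeq promoter window of the first Pax6 start (GRCm38.p6, chr2:105668646-105668945, plus strand, 250 bases before to 50 after the start) is shown for contrast, because its probe had no raised ratio. The second window, of Pax2 (GRCm38.p6, chr19:44756656-44756955, plus strand), holds probes of the highest set of that gene. Capitals mark here the bases that array probes cover:
Pax6 promoter: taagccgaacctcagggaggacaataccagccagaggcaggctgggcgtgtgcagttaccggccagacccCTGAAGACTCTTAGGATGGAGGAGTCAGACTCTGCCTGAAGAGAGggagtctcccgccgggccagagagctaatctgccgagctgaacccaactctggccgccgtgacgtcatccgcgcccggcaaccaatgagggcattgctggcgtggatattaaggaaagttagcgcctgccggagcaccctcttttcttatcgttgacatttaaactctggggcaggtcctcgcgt
Pax2 promoter: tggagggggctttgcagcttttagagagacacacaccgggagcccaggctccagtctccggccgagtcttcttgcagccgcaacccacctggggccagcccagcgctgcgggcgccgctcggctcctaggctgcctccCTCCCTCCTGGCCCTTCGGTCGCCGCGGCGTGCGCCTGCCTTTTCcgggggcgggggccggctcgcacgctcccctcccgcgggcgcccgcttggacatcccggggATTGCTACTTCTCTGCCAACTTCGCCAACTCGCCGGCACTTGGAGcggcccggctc

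Of the 9 Pax genes, Pax6 alone was called with all spots, 1 of 7 on array 1 and 0 of 2 on array 2. The same rule called 22.1% of the 8543 genes of array 1 and 3.58% of the 8447 genes of array 2, so the family's count was not above the background of either array. The median over the Pax genes of the highest set mean was 1.41 on array 1, beside 1.21 for all genes there, and 1.20 on array 2, beside 1.07. The Pax genes were tiled with a median of 44 probes, against 28 for all genes, and therefore offered more sets to take a highest value from. The highest set means ran from 0.74 (Pax5) to 2.60 (Pax6).

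The level over a gene's whole tiled stretch, its median probe ratio, gave another order. With all spots, Pax2 had 0.45, Pax7 0.30 and Pax6 0.28, followed by Pax3 at 0.16 and Pax4 at 0.07. Pax8 at -0.02, Pax5 at -0.10, Pax1 at -0.15 and Pax9 at -0.22 lay under the array median of 0. The order at the top depended on the processing: in the deposited log ratio column Pax2 had 0.09 and Pax6 0.28, and with the GC trend subtracted Pax2 had 0.27 and Pax6 0.43. With all spots, 16.6% of genes had a median as high as Pax7 and 18.0% as high as Pax6 on array 1, and 18.6% as high as Pax2 on array 2. These shares moved with the processing too. They were 2.43% for Pax7, 2.21% for Pax6 and 0.69% for Pax2 in the deposited log ratio column, 2.34%, 1.83% and 0.73% in the same order under normexp correction, and 11.4%, 0.47% and 1.27% with the intensity trend subtracted. The Pax6 median was 0.28 both with all spots and in the deposited column, so its share fell there through the values of other genes. In that column Dach1, Dach2 and Eya4 of array 2, described below, had the same median, 0.03, and the same share, 0.94%. The Pax2 median of 0.09 lay just above this shared value. A low share on array 2 in that column thus does not show a ratio far above other genes. The share of Cy5 surrogates ranged from 7.32% (Pax7) to 34.3% (Pax4). In the plot of all Pax probes by position, the called probes of Pax6 lay next to each other.

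**Figure D1:**
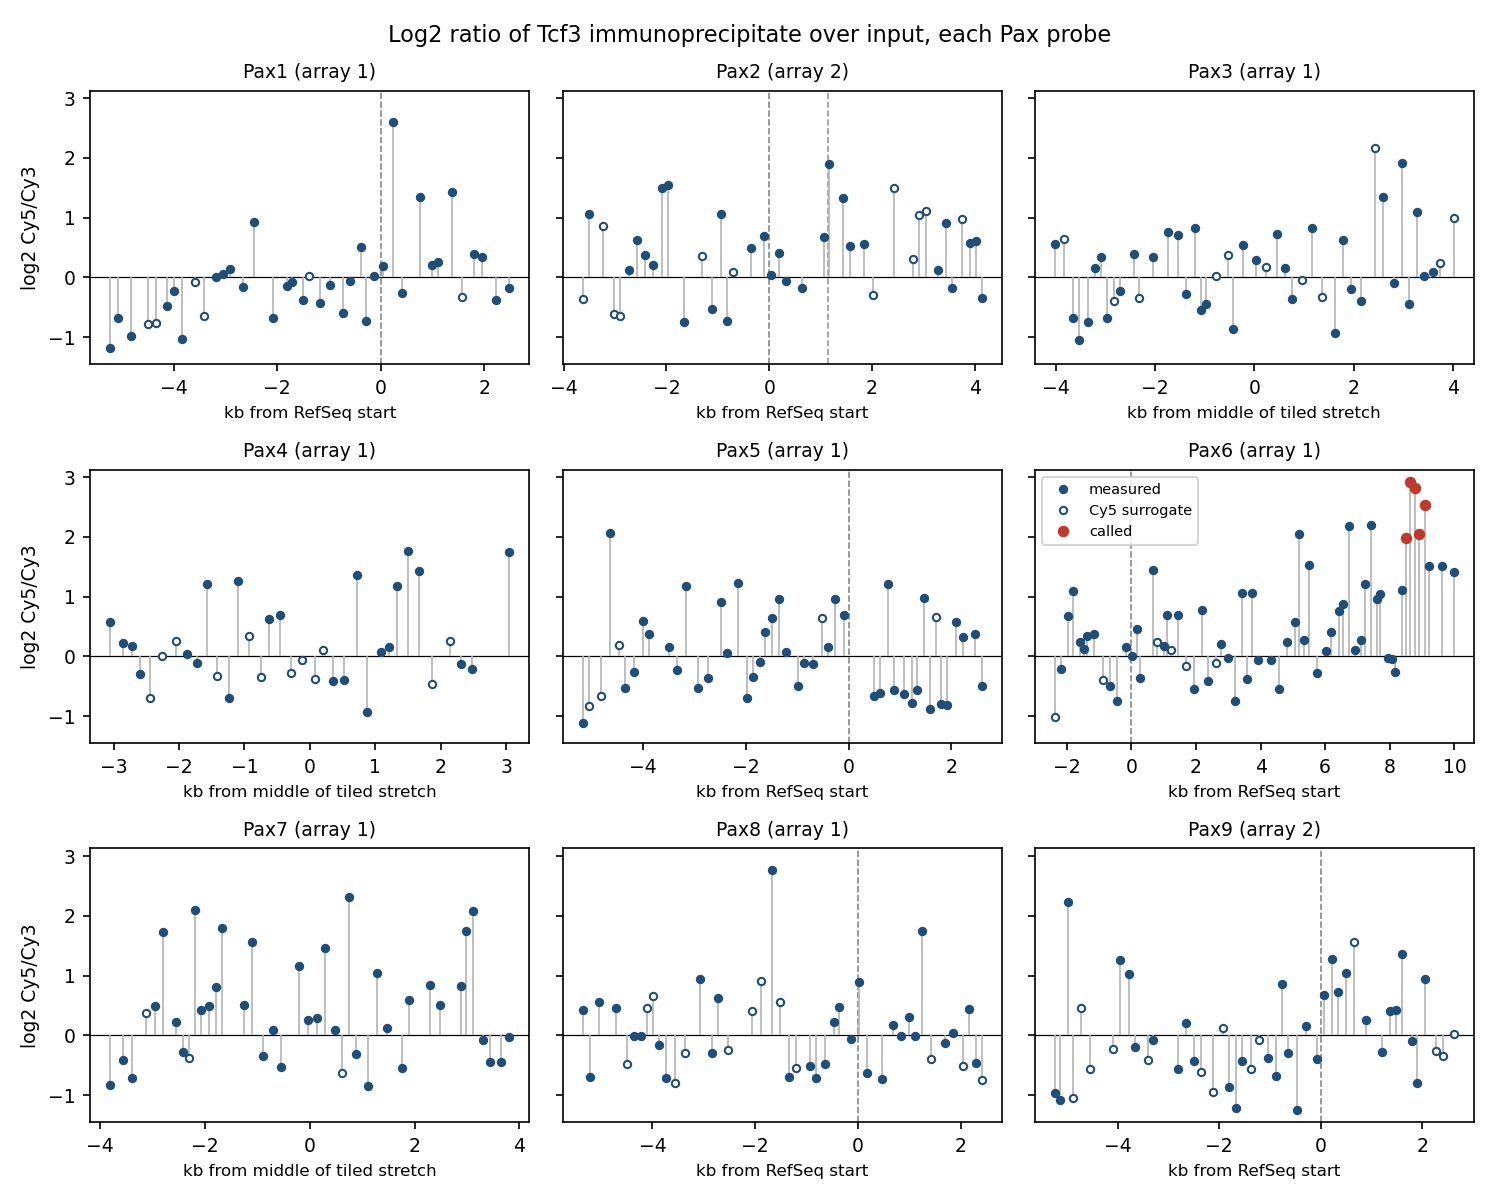
Log2 ratio of Cy5 over Cy3 (vertical axis) of each probe of the 9 Pax genes against distance in kb from the first probed RefSeq start (dashed lines mark starts), or from the middle of the tiled stretch for Pax3, Pax4 and Pax7; filled points are measured spots, open points Cy5 surrogates, red points called probes. Called probes appear in Pax6 alone, at the far right of its stretch, while the high probes of the other 8 genes mostly stand singly.

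Pax6 and Pax4 form the subgroup with a homeodomain and no octapeptide. Pax6, the master regulator of eye development, had 64 probes over 12402 bp. The 5 called probes had ratios of 1.98, 2.92, 2.83, 2.04 and 2.53, with Cy5 intensities between 2363 and 10851 against Cy3 intensities between 538 and 1692. None was a surrogate, and their GC content lay between 36.7% and 43.1%. The highest set mean of Pax6 was 2.60 ± 0.48 (SD over 3 probes), a 6.05-fold ratio of immunoprecipitate to input. It ranked 90 of 8543 genes on array 1, where 1.05% of genes reached as high a value.

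The called Pax6 region lay far from the first annotated start. Exact matches of probe letters to RefSeq promoter windows placed the first Pax6 start at position 105519683 of chromosome 2 in array coordinates. The centres of the called probes were 8506 to 9078 bp downstream of it. The 5 probes within 500 bp of that start had ratios from -0.74 to 0.46, with a median of 0.01, so the start itself was at the level of the array's median. A second RefSeq start of Pax6 lies 13567 bp downstream of the first (GRCm38.p6) and carried no probe. By this spacing, the called probes lie between the 2 starts and nearer to the second. Distances are given from the first start alone, because the second was not placed in array coordinates.

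The raised stretch of Pax6 was longer than the called region, as its ratios plotted by distance show. From 8362 to 9980 bp downstream of the first start, 9 consecutive probes had ratios above 1, over 1677 bp. Their mean was 1.99 ± 0.65 (SD over 9 probes), with ratios from 1.12 to 2.92. The last of them, at 1.42, was also the last Pax6 probe, so how far the stretch continues was not measured. A run at least as long occurred in 48 of 8543 genes (0.562%) of array 1, and in 3 of 8380 genes (0.0358%) when Cy5 surrogates were left out. The median longest run was 2 probes over all genes with all spots. Pax6 had 64 probes, against a median of 28 over the genes of array 1, and so offered more places for a long run. With surrogates left out Pax6 kept 58 probes, against a median of 19. Neither these shares nor the rank of its highest set mean was adjusted for the number of probes. The other 55 Pax6 probes had a median of 0.21 and reached from -1.01 to 2.21. Among them, probes at 5187, 6736 and 7404 bp had ratios of 2.05, 2.18 and 2.21. The first and second of these had no neighbour above 1, and the third had 1 neighbour at 1.21.

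**Figure D2:**
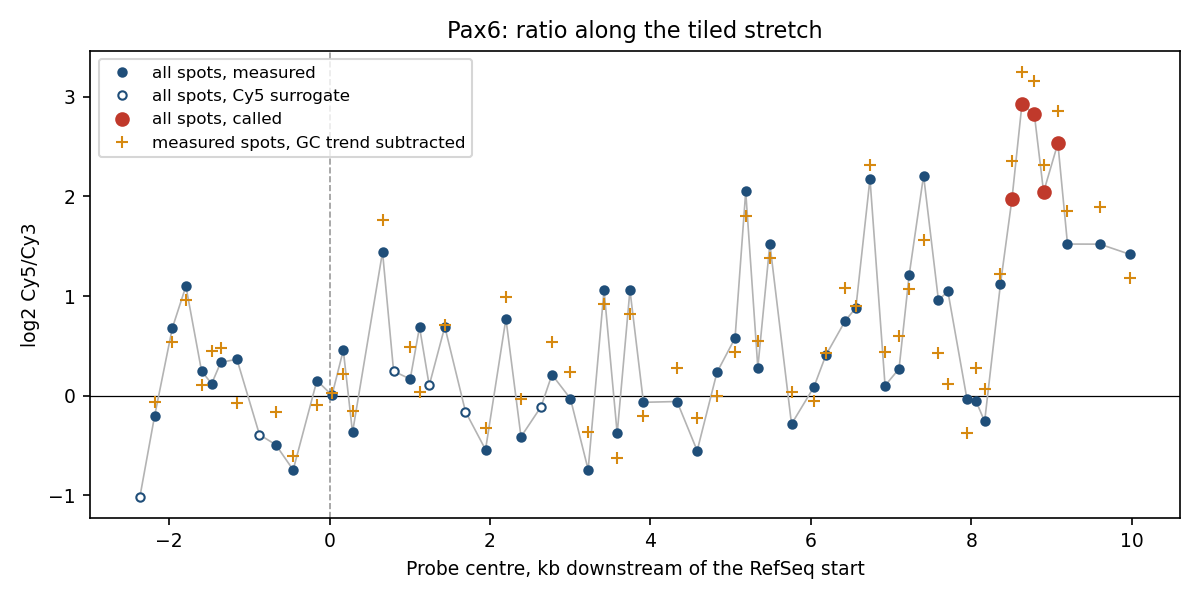
Log2 ratio of Cy5 over Cy3 (vertical axis) of the 64 Pax6 probes. The horizontal axis is the distance in kb of the probe centre from the first RefSeq start (dashed line at 0). Circles show all spots (open: Cy5 surrogate, red: called) and crosses the measured spots after subtraction of the GC trend. The last 9 probes all lie above 1, whereas the 5 probes within 500 bp of the start lie between -0.74 and 0.46.

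Pax4, which acts in the endocrine pancreas, was not called. The 3 probes of its highest set (chr6:28383390-28383775) had ratios of 1.18, 1.77 and 1.42, none of them a surrogate. Their mean of 1.46 ± 0.30 lay just under the limit of 1.47, and 34.3% of the genes of array 1 reached as high. None of the 3 ratios reached 1.85 or 2.22, so the limits on single probes were not met either. These were also the 3 probes of its longest run above 1, a run length met by 22.1% of genes. The SD of this set was the smallest of the 9 highest sets.

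Pax3 and Pax7 share a paired domain, octapeptide and homeodomain and act in neural crest and muscle progenitors. The highest set of Pax7 (chr4:139215903-139216190) had ratios of 0.83, 1.76 and 2.09, a mean of 1.56 ± 0.65. Its mean passed the limit of 1.47, but 1 of its probes reached 1.85 and the central probe did not reach 2.22, so it was not called. A mean as high occurred in 28.8% of the genes of array 1. Of its 41 probes, 10 had ratios above 1 and 3 above 2, scattered along the stretch, and the other probes above 2 (2.10 and 2.31) had no neighbour above 1. The highest set of Pax3 (chr1:78426345-78426786) had ratios of 2.17, 1.35 and -0.09, a mean of 1.14 ± 1.14. In the first of these spots both channels held surrogates, so that ratio is not a measurement. Neither gene had a probe matched to a RefSeq promoter window, and distances from a start are not given for them.

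Pax2, Pax5 and Pax8 share the paired domain and octapeptide with a partial homeodomain. Pax2, a regulator of kidney and optic nerve development, had a median of 0.45 over its 40 probes with all spots. Its highest set (chr19:44650667-44651082) lay at a RefSeq start: probes 90 bp upstream and 16 and 281 bp downstream had ratios of 0.68, 1.90 and 1.32. Their mean was 1.30 ± 0.61, under the limit of 1.69, and 35.3% of the genes of array 2 reached as high. The GC content of this set averaged 65.2%. Its 9 probes within 500 bp of a probed start had a median of 0.53, with 0 surrogates, and its other 31 probes a median of 0.36, with 12 surrogates.

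Pax8, a regulator of the thyroid and kidney, owed its highest set to 1 probe. At 1676 bp upstream of the start, this probe had a ratio of 2.77, from a Cy5 intensity of 2670 against a Cy3 intensity of 462. Both neighbours (0.56 and 0.90) were Cy5 surrogates. The set mean was 1.41 ± 1.19 (chr2:24484398-24484822), and without that probe the highest set mean of Pax8 was 0.68. Its 6 probes within 500 bp of the start had a median of 0.08. Pax5, the B-cell commitment factor, was the lowest member: its highest set (chr4:44726644-44727023) had ratios of 1.24, 0.06 and 0.91 and a mean of 0.74 ± 0.61, and 82.0% of genes reached as high. Its highest probe, 4644 bp upstream of the start, had a ratio of 2.07 beside neighbours at 0.20 and -0.66.

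Pax1 and Pax9, which have no homeodomain and act in the sclerotome, showed no probe cluster above the limits. The highest Pax1 probe lay 230 bp downstream of the start, with a ratio of 2.61 and a GC content of 73.3%. Its neighbours had ratios of 0.20 and -0.26. The set with the highest mean (chr2:147106059-147106636) had ratios of 2.61, -0.26 and 1.34, a mean of 1.23 ± 1.44. After subtraction of the GC trend the ratio of the GC-rich probe was 1.16. The highest set of Pax9 (chr12:54626145-54626526) lay 338 to 666 bp downstream of its start, with ratios of 0.72, 1.05 and 1.56, a mean of 1.11 ± 0.42. The last of these spots held surrogates in both channels. The highest Pax9 probe, at 4976 bp upstream with 2.24, stood between neighbours at -1.09 and -1.04. Set side by side by structural subgroup, the highest set means were 2.60 (Pax6) and 1.46 (Pax4), 1.56 (Pax7) and 1.14 (Pax3), 1.41 (Pax8), 1.30 (Pax2) and 0.74 (Pax5), and 1.23 (Pax1) and 1.11 (Pax9), with Pax2 and Pax9 on the other array.

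Ratios above 2 were found in 15 Pax probes, 7 of them in Pax6 and 8 in Pax1, Pax3, Pax5, Pax7, Pax8 and Pax9. Of the 8, 6 had no neighbour above 1 and 1 was a surrogate. Over all probes, 4.31% of array 1 and 1.01% of array 2 had ratios above 2. Of the Pax probes above 2, the Pax9 probe lay on array 2 and the rest on array 1. Ratios above 1 were found in 66 of the 401 Pax probes, and in 16.9% of all probes. When the highest probe of each Pax gene was left out, an alternative chosen after seeing the data, Pax6 was still called, with a highest set mean of 2.47 ± 0.39 (SD over 3 probes), and no other member was.

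The ratio moved with the GC content of the probe at both ends of the range. The median ratio of all probes was 1.46 between 20% and 30% GC, -0.27 between 40% and 50% GC, 0.67 between 60% and 70% and 1.25 between 70% and 80%. In the last 3 of these ranges the Pax probes had medians of 0.04, 0.88 and 0.69, from 201, 22 and 3 probes. The called Pax6 probes lay at a GC content where the median of all probes was 0.09 (30% to 40%) or -0.27, as the plot of ratio against GC content shows. Those medians are over all spots, surrogates included. Over measured spots the median was 0.70 between 20% and 30% GC, from 740 of the 11121 probes there. It was -0.20 between 30% and 40%, -0.15 between 40% and 50%, 0.78 between 60% and 70% and 1.36 between 70% and 80%. For the high GC-rich probes of Pax1 and Pax2, the part of the GC content in their ratio was not tested.

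**Figure D3:**
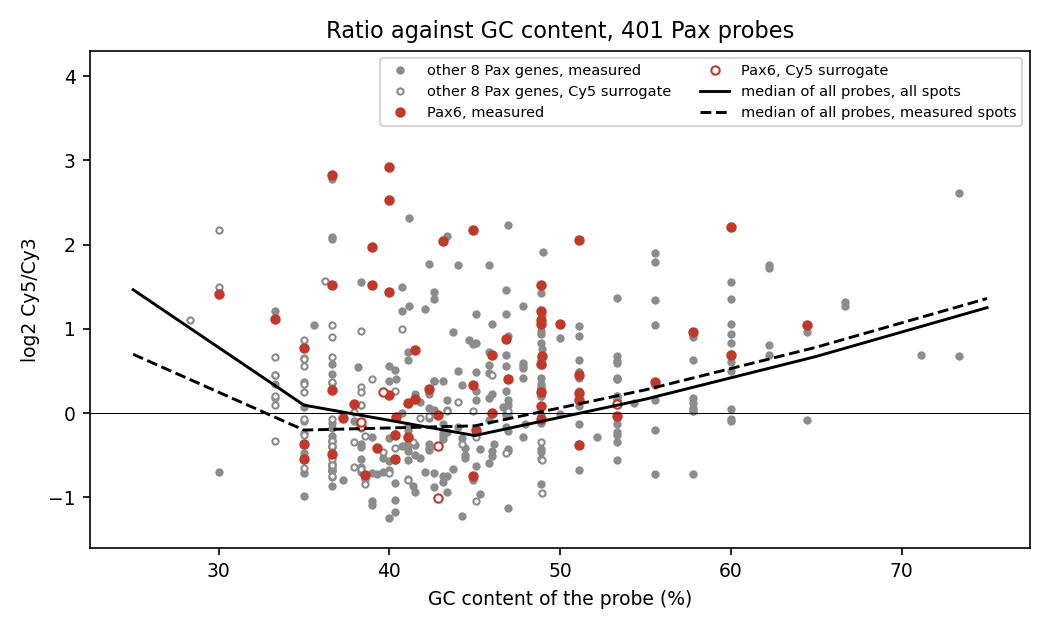
Log2 ratio of Cy5 over Cy3 (vertical axis) against GC content in percent of the 401 Pax probes, Pax6 in red and the other 8 genes in grey, with open points for Cy5 surrogates; lines show the median of all probes in ranges of 10 percentage points (solid: all spots; dashed: measured spots). The highest Pax6 probes (2.92, 2.83 and 2.53) lie at or below 40% GC, and the highest Pax1 probe (2.61) at 73.3%.

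The calls of Pax genes other than Pax6 changed with the treatment of surrogates and GC content, as the plot of set means under 3 treatments shows. With measured spots alone, Pax6 was again the 1 member called, at 2.64 ± 0.48 (SD over 3 probes), beside 16.1% of the genes of array 1 and 10.9% of those of array 2. After subtraction of the GC trend from these measured spots, 5 of 9 members passed, 4 of 7 on array 1 beside 18.9% of all genes, and 1 of 2 on array 2 beside 7.27%. These were Pax6 at 2.92 ± 0.49, Pax4 at 1.55 ± 0.42, Pax7 at 1.50 ± 1.17, Pax2 at 1.37 ± 0.97 and Pax3 at 1.21 ± 0.84. Pax6 then ranked 14 of 8380 genes, and its called region extended to 1155 bp and 7 probes. The Pax genes of array 1 kept a median of 34 measured probes, against 19 for all genes, and those of array 2 kept 30 against 13. They therefore offered more sets in which a call could occur.

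The 4 members gained this way had fewer called probes than Pax6. Pax2, Pax3 and Pax4 had 1 called probe each and Pax7 had 2, against 8 in Pax6. The called Pax3 probe had itself a ratio of 0.24 and was called through its neighbours, at 1.62 and 1.77. Pax8, at 1.34 from 2 probes with an SD of 2.50, Pax9 at 1.24, Pax1 at 0.95 and Pax5 at 0.72 were not called.

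**Figure D4:**
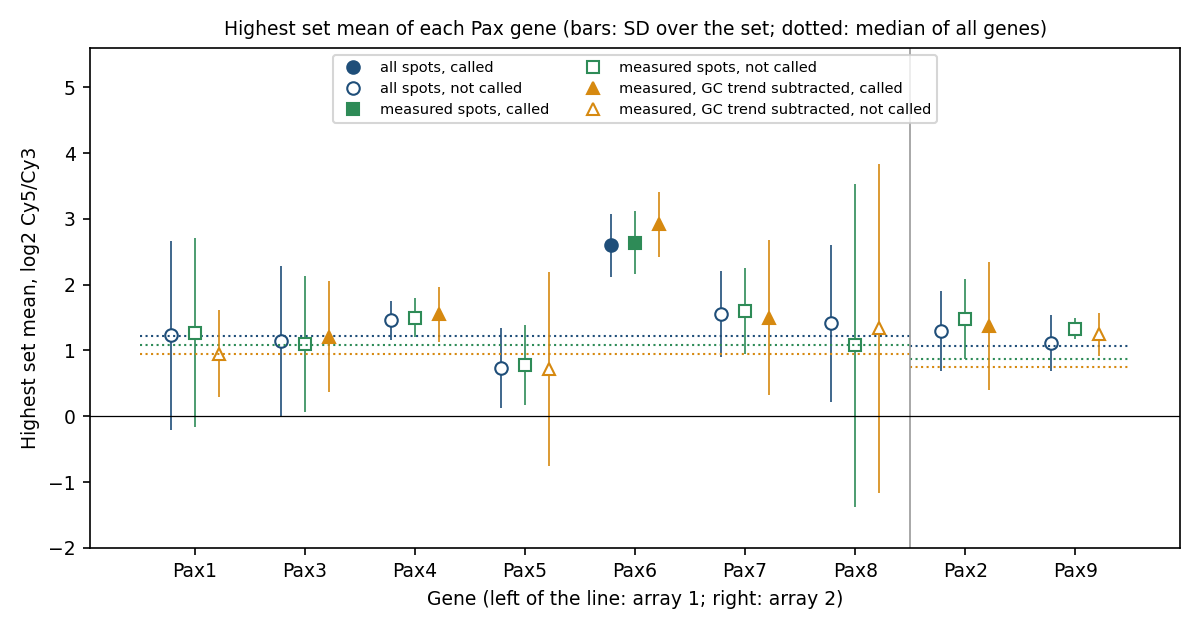
Highest set mean of each Pax gene, in log2 Cy5 over Cy3, with bars for the SD over each set's probes, for all spots (circles), measured spots (squares) and measured spots with the GC trend subtracted (triangles); filled symbols were called and dotted lines are the medians of all genes of the array. Pax6 is called and highest in all 3, from 2.60 to 2.92; the other called genes appear with the triangles alone.

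Core words of Tcf/Lef proteins were counted in the Pax probes and in all probes. At least 1 of the 4 words was found in 19 of 401 Pax probes (4.74%) and in 27008 of all 474380 probes (5.69%); Pax probes had a median length of 52 bases and all probes of 57. Between 30 and 40% GC the shares were 12.2% of 115 Pax probes and 7.79% of all probes, and between 40 and 50% GC they were 1.99% of 201 and 4.90%. These differences were not tested. The Pax probes with a word had a median ratio of 0.21, with 2 of 19 above 1, and those without a word a median of 0.10, with 64 of 382 above 1. The higher of the 2 with a word and above 1 was a Pax2 probe (chr19:44647628-44647687), at 1.55. It lies beside the Pax2 probe that was called with measured spots after subtraction of the GC trend. The other was the Pax6 probe next to the called region, at 1.12. Of the other Pax6 probes with a word, those 171 and 286 bp downstream of the first start had 0.46 and -0.37. Among RefSeq promoter windows of 300 bases, 0 of 10 windows of 7 Pax genes held a word, and 5544 of 32851 windows of all genes did (16.9%); Pax3 and Pax4 have no window in the table. A missing match says only that these letters are not in the window or probe.

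Eya and Dach proteins act with Pax proteins in the network that specifies the eye, Eya proteins as phosphatase cofactors and Dach proteins as corepressors. Of the 6 genes Eya1 to Eya4, Dach1 and Dach2, 2 were called with all spots, both among the 3 on array 1 and 0 of the 3 on array 2, where the same rule called 22.1% and 3.58% of all genes. Eya3 had the highest set mean of these genes, 1.89 ± 0.88 (SD over 3 probes), and Eya1 had 1.64 ± 0.88. Dach2 lay between them with 1.73 ± 0.45, from 2 probes of which 1 was a surrogate, and was not called. The median over these genes was 1.64 on array 1, beside 1.21 for all genes, and 1.46 on array 2, beside 1.07. The value of array 2 is the set mean of Dach1, in which 3 of 3 Cy5 signals were surrogates, as were 3 of 3 for Eya4. Over measured spots the median on array 2 was 1.17, beside 0.87 for all genes. With all spots these Eya and Dach genes had a median of 29 probes on array 1 and 39 on array 2, against 28 for all genes. Those of array 2 therefore offered more sets to take a highest value from. None of the 6 reached the Pax6 value with all spots.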

How the data were processed

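Cross-linked chromatin of E14 cells was immunoprecipitated, amplified after linker ligation and hybridised against input, per the labels' protocols. Spot extraction by the authors used Agilent Feature Extraction, version 9.1.1.1 in the headers. Each channel's deposited processed intensity is background-subtracted and linearly dye-normalized, per the file headers (factors 3.58 for Cy3 and 3.18 for Cy5 on array 1, 2.33 and 1.67 on array 2), with a surrogate intensity in place of a signal at or under background. The log10 ratio that the authors deposited beside it served as an alternative. The genome build was not given in the sources used here. The authors called bound regions by a neighbourhood model, per the labels; their calls are not used here.

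Computed here were log2 ratios of processed intensities, centred on each array's median, without non-uniform spots (9 and 18). Each array was called alone, since probes are not shared. For a call, the set mean had to have an upper-tail normal probability under 0.001, and either the probe's own was also under 0.001 and an adjacent one under 0.1, or 2 of the set lay under 0.005. The spread of probes came from values below the median (0.72 and 0.78), and that of set means from sets of the same size. These probabilities are a calling rule, not p-values. The GC trend was the median ratio in bins of 2% GC. RefSeq starts were placed by exact probe matches to promoter sequences of GRCm38.p6; 7 of 9 Pax genes have such a sequence, and 6 of these hold a probe. All 9 Pax genes are named, and of the eye-network list (Eya1 to Eya4, Dach1, Dach2) the called members and the 3 highest; this list was longer when first written, and its other genes are not reported here. Members and lists were chosen with earlier results of these data known. The caller was run on simulated independent noise with planted raised stretches, which held no surrogates, GC trend or shared fragments. Its error on these arrays was therefore not measured by that run. Alternatives numbered 16, of which 1 was added after seeing the data. The 2 arrays carry different probes and are not replicates, so no precision between experiments can be estimated for any gene. Tools were Python 3.11.15, numpy 2.4.6, pandas 2.3.3, scipy 1.17.1, statsmodels 0.14.6, R 4.3.3 and limma 3.58.1 (normexp, offset 50).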

Additional observations from a re-analysis of the deposited data

How the results depend on the processing

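Pax6 was called in 16 of 16 alternatives, with highest set means from 2.09 to 2.92, and Pax5 in 0 of 16. Pax7 was called in 5, Pax4 in 4, Pax2 and Pax3 in 3 each, and Pax1, Pax8 and Pax9 in 2 each. The alternatives reuse the same hybridisation of each gene, so these counts are not independent checks. A minimum set mean of 1 and a set probability of 0.01 could not remove a call, by construction. The deposited log ratio column and a neighbour distance of 500 bp left the Pax6 value at 2.60. The count of called Pax genes, 1 with all spots, became 7 under normexp correction and also 7 after removal of the intensity trend, which called 49.5% and 49.9% of all genes. It became 4 with the GC trend subtracted (10.6% of all genes), 5 with this on measured spots (13.2%), 2 before dye normalization (12.7%) and 2 without dim input (12.1%). On array 1 these settings called 4, 4, 2 and 2 of the 7 Pax genes, in the same order. The shares of all genes of array 1 were 18.0%, 18.9%, 21.9% and 17.3%. The count of called genes among Eya1 to Eya4, Dach1 and Dach2, 2 with all spots, became 6 with normexp, 5 with the intensity trend subtracted and 1 with the GC trend subtracted. It became 1 with a set probability of 0.0001 (8.21% of all genes), 1 with the scale taken from all probes (6.82%) and 1 with the set median (11.6%). In these 3 settings the called gene lay on array 1, where the shares were 15.2%, 12.2% and 20.5% in the same order. The cause of these changes in count was not tested, except that the stricter probability lowers the count by construction. The scale taken from all probes was also larger, 0.80 against 0.72 on array 1 and 0.87 against 0.78 on array 2. A larger scale raises the limits that a probe must pass. Leaving out an array was not run, because each gene lies on 1 array. No paired analysis was possible because there is 1 group and the arrays share 0 probes. Surrogate Cy5 signals, 82 of 401 Pax probes, limit what can be measured at weak spots.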
